A study of Sus scrofa with 15 samples.

Results

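The CDC-like kinases (CLKs) and the SR splicing factors were examined in porcine natural killer (NK) cells through 10 genes: the 4 kinase genes *CLK1* to *CLK4*, and the 6 SR protein genes *SRSF1*, *SRSF2*, *SRSF3*, *SRSF5*, *SRSF6* and *SRSF7*. They are 10 of the 29886 genes in the deposited count table, were taken by gene symbol, and were selected on their counts in these same 15 libraries, as earlier results of the 3 comparisons gave them. Their levels and differences are therefore given as a description, without p-values, and counts of them that passed a threshold support nothing. All 10 passed the filter on low counts that left 10939 genes for testing. The study asked how liver-resident NK cells and CD8αhigh NK cells of the liver relate to circulating NK cells. To this end, 3 populations were sorted from each of 5 pigs of 6 months old, without any treatment, giving 15 libraries with 1 pig behind each. All cells were sorted as CD3- and CD172a-, after magnetic enrichment, and were split on CD8α: CD8αhigh NK cells of blood (cNK cells, labelled Blood NK), CD8αhigh NK cells of liver (labelled Conventional liver NK) and CD8αdim NK cells of liver (lrNK cells, labelled Liver resident NK). The liver cells were collected by flushing the organ with ice-cold PBS, whereas the blood cells came from drawn blood, so organ and way of isolation cannot be told apart in any comparison of liver with blood.

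SR proteins bind exonic sequences through RNA recognition motifs and recruit the spliceosome through a tail rich in arginine and serine (the RS domain). CLKs are nuclear kinases that phosphorylate RS domains and thereby release SR proteins from nuclear speckles, alongside the cytoplasmic SR protein kinases (SRPKs), and the activity of CLKs is known to rise when temperature falls. Transcripts of both families can be held back with retained introns or carry poison exons that send them to nonsense-mediated decay, and many SR proteins limit their own expression in this way. None of these splice forms can be seen in the data used here, since the libraries read only the 3′ end of polyadenylated transcripts and give 1 count per gene.

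Library totals ranged from 2003499 to 5680221 counts, with medians of 3749615 in blood, 3877028 in liver CD8αhigh and 2407859 in lrNK libraries. Levels are given in CPM, the counts scaled to a common TMM-adjusted library size, and as mean ± SD over 5 pigs. Because 1 fragment is read per transcript, a level does not grow with transcript length. All 10 NK cell markers (*NCR1*, *NKG7*, *PRF1* and others) were detected in each population, with summed levels of 3766 to 4870 CPM in cNK, 4137 to 4753 CPM in liver CD8αhigh and 4367 to 6804 CPM in lrNK libraries. Of the 6 T cell markers, *CD4*, *CD5* and *CD28* were at 0 in all libraries and *CD3G* held most of the counts, with 865 ± 206, 825 ± 151 and 289 ± 201 CPM in cNK, liver CD8αhigh and lrNK cells. The 6 B cell markers summed to 51.9 to 128 CPM in cNK, 17.9 to 59.7 CPM in liver CD8αhigh and 258 to 707 CPM in lrNK libraries, with *CD79A* at 0 throughout. The 7 hepatocyte markers reached at most 9.74 CPM in sum, the 7 myeloid markers 25.6 CPM and the 6 endothelial markers 18.5 CPM in any library. Erythroid and platelet markers summed to 395 CPM in the cNK library of pig 4, of which 302 CPM were the haemoglobin gene *HBB*, and to 69.1 to 178 CPM in the other 14 libraries. In those 14, *GP9* held most of the sum. Its means were 90.5, 96.4 and 118 CPM in cNK, liver CD8αhigh and lrNK cells. The markers *ALAS2*, *AHSP* and *PPBP* reached at most 10.8, 2.17 and 2.35 CPM in any library. Without pig 4 the log2 fold changes of *CLK1*, whose lowest level was in that cNK library, were 0.90 in liver CD8αhigh and 0.73 in lrNK against cNK cells. The part of these markers in the results was not tested. In sorted bulk RNA, fewer cells of a type and less RNA per cell cannot be told apart.

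*CLK1* had the largest differences from blood among the kinases. This kinase gene lies at chr15:104553512-104562348 of Sscrofa11.1 and overlaps no other annotated gene. Its level was 418, 387, 436, 258 and 783 CPM in the cNK libraries of pigs 1 to 5, in that order, against 999, 896, 949, 928 and 931 CPM in their liver CD8αhigh libraries. The 2 sets of libraries did not overlap, and *CLK1* was higher in liver in 5 of 5 pigs. In lrNK cells the level was 818, 763, 1117, 511 and 667 CPM, which overlapped the cNK cells through pig 5, whose blood library was the highest of its group. Means were 456 ± 195, 941 ± 37.9 and 775 ± 224 CPM (SD, n = 5). The log2 fold change was 1.04 ± 0.23 (SE) for liver CD8αhigh against cNK cells, a 2.06-fold difference, and 0.76 ± 0.23 for lrNK against cNK cells, a 1.70-fold difference with 4 of 5 pigs in that direction. Leaving out each pig in turn gave 0.90 (without pig 4) to 1.34 (without pig 5) for the former and 0.58 (without pig 3) to 1.11 (without pig 5) for the latter. Between both liver populations the difference was -0.28 ± 0.23, with a 95% interval of -0.73 to 0.17.

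*CLK4* (chr2:79729460-79752945), the closest relative of *CLK1*, was expressed at a lower level and showed the same order of the populations. Its level was 78.3, 57.6, 58.6, 55.7 and 70.3 CPM in cNK libraries and 93.2, 93.3, 107, 123 and 134 CPM in liver CD8αhigh libraries of pigs 1 to 5. As for *CLK1*, no liver CD8αhigh library reached down to any cNK library. The lrNK libraries held 71.4, 101, 76.5, 57.3 and 82.5 CPM and overlapped both other populations. Means were 64.1 ± 9.80, 110.1 ± 18.0 and 77.7 ± 15.9 CPM. The log2 fold change was 0.78 ± 0.18 for liver CD8αhigh against cNK cells (5 of 5 pigs), 0.28 ± 0.19 for lrNK against cNK cells (4 of 5 pigs) and -0.51 ± 0.18 for lrNK against liver CD8αhigh cells (lower in 4 of 5 pigs).

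*CLK2* (chr4:94558220-94570084) and *CLK3* (chr7:58895407-58909616) encode the other two kinases of the family and had lower mean levels in both liver populations than in blood. *CLK2* was at 54.1 ± 5.95, 44.1 ± 5.88 and 51.3 ± 28.3 CPM in cNK, liver CD8αhigh and lrNK cells. The large SD in lrNK cells came from pig 3, at 98.9 CPM, while the remaining 4 libraries held 29.8 to 54.8 CPM. *CLK3* was at 33.1 ± 8.11, 24.4 ± 7.74 and 27.9 ± 6.21 CPM. For liver CD8αhigh against cNK cells their log2 fold changes were -0.30 ± 0.27 (lower in 4 of 5 pigs) and -0.44 ± 0.28 (lower in 3 of 5 pigs), with a sign opposite to that of *CLK1* and *CLK4*, and their 95% intervals of -0.82 to 0.23 and -0.98 to 0.11 included 0. The lrNK cells differed from cNK cells by -0.08 ± 0.27 for *CLK2* and by -0.25 ± 0.28 for *CLK3*. Without the lrNK library of pig 3 the *CLK2* value was -0.44.

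**Figure D1:**
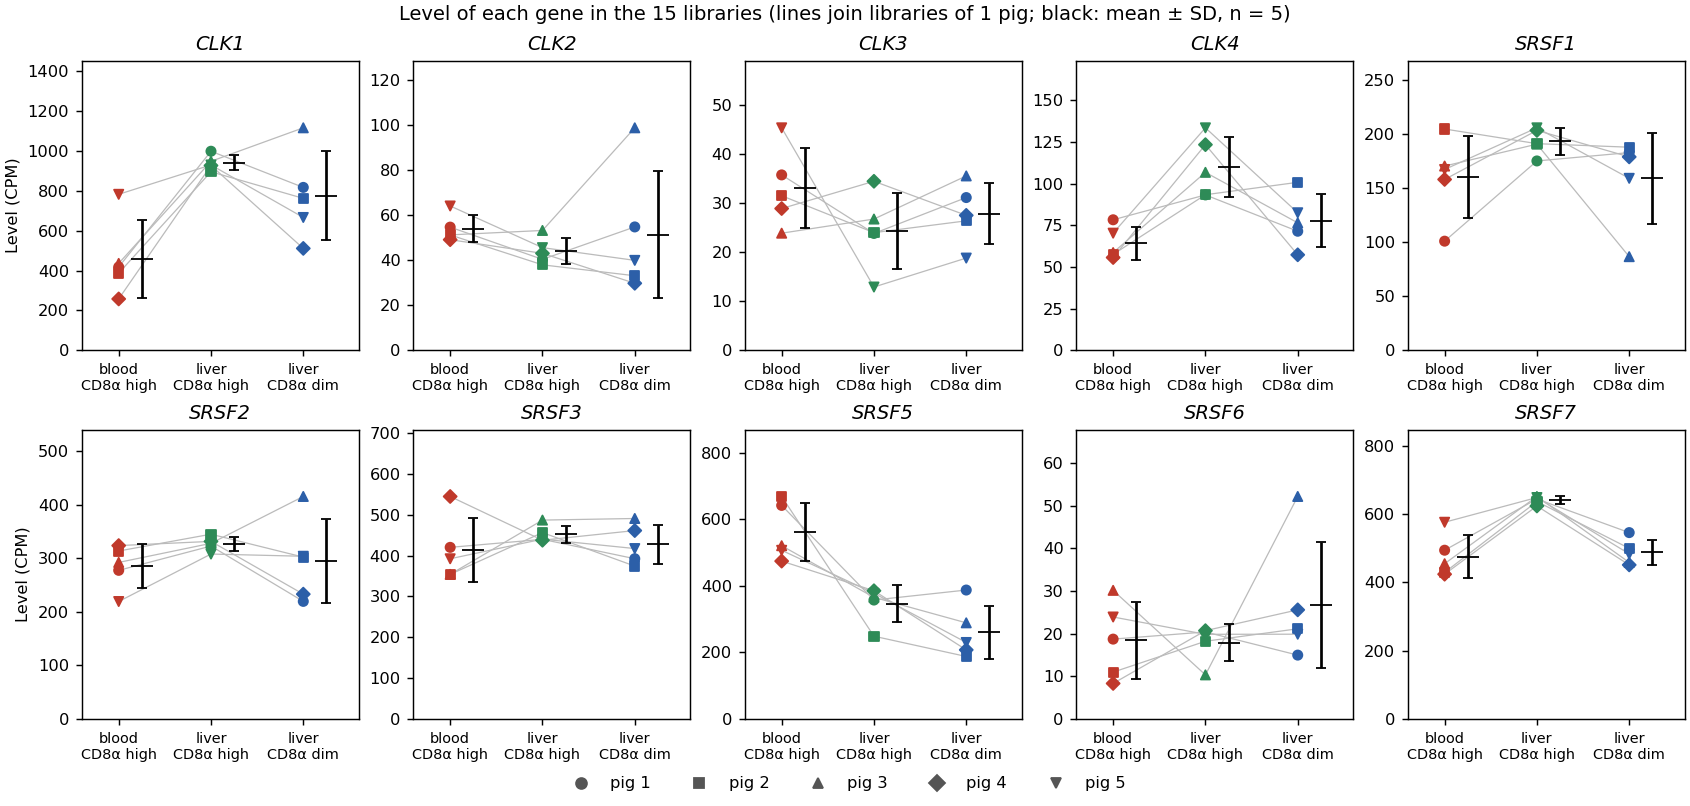
Level in CPM (vertical axis, linear from 0, a scale of its own for each gene) of the 10 genes in blood CD8αhigh, liver CD8αhigh and liver CD8αdim NK cells. Points are libraries, shaped by pig and joined by a line for each pig, and black bars are the mean ± SD (n = 5). *CLK1* sits at 896 to 999 CPM in liver CD8αhigh cells, above all cNK libraries, while *SRSF5* sits at 474 to 669 CPM in cNK cells, above all liver libraries.

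Among the SR proteins, *SRSF5* showed the largest difference, in the direction opposite to *CLK1*. *SRSF5* (chr7:93393379-93398510, no overlapping gene) encodes an SR protein known as SRp40. Its level was 642, 669, 521, 474 and 507 CPM in cNK libraries of pigs 1 to 5 and 357, 249, 366, 385 and 378 CPM in liver CD8αhigh libraries. The lrNK libraries held 387, 188, 289, 208 and 229.8 CPM. Each of the 10 liver libraries was below each of the 5 blood libraries. Means were 563 ± 86.9, 347 ± 56.0 and 260.3 ± 80.6 CPM. The log2 fold change against cNK cells was -0.70 ± 0.19 in liver CD8αhigh cells, or 1.62-fold lower, and -1.11 ± 0.19 in lrNK cells, or 2.16-fold lower, each with 5 of 5 pigs lower. Both liver populations overlapped, with lrNK cells lower in 4 of 5 pigs (-0.42 ± 0.19).

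*SRSF7* (chr3:101599429-101608786, no overlapping gene) encodes an SR protein that carries a zinc knuckle and also acts in mRNA export and polyadenylation. It was at 494, 429, 454, 424 and 576 CPM in cNK libraries, at 644, 636, 651, 623 and 648 CPM in liver CD8αhigh libraries and at 545, 499, 458, 451 and 483 CPM in lrNK libraries of pigs 1 to 5. The liver CD8αhigh libraries were above all others, and the cNK and lrNK libraries overlapped. Means were 475 ± 62.6, 640.4 ± 11.1 and 487 ± 37.8 CPM. The log2 fold change was 0.43 ± 0.13 for liver CD8αhigh against cNK cells (5 of 5 pigs higher) and -0.39 ± 0.13 for lrNK against liver CD8αhigh cells (5 of 5 pigs lower). Between lrNK and cNK cells the difference was 0.04 ± 0.13, with a 95% interval of -0.21 to 0.28. *SRSF7* therefore separated the 2 liver populations from each other, whereas *SRSF5* separated both from blood.

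The libraries of the other 4 SR genes overlapped in every comparison. *SRSF1* (chr12:34278363-34282164), the founding member of the family (SF2/ASF), was at 161 ± 37.7, 194 ± 12.3 and 159 ± 42.0 CPM in cNK, liver CD8αhigh and lrNK cells. *SRSF2* (chr12:4800578-4803767), which encodes SC35, the classical marker of nuclear speckles, was at 285 ± 41.0, 327 ± 13.5 and 295 ± 77.7 CPM. *SRSF3* (chr7:32289464-32298652), which encodes the smallest SR protein and an mRNA export adaptor, was at 413 ± 78.8, 452 ± 20.8 and 427 ± 48.3 CPM. For liver CD8αhigh against cNK cells their log2 fold changes were 0.27 ± 0.20, 0.20 ± 0.17 and 0.13 ± 0.14, higher in 4, 5 and 4 of 5 pigs, and for lrNK against cNK cells -0.01 ± 0.20, 0.05 ± 0.17 and 0.05 ± 0.14. The 95% interval of *SRSF1* ran from -0.12 to 0.66 for liver CD8αhigh against cNK cells and from -0.40 to 0.38 for lrNK against cNK cells, and those of *SRSF2* and *SRSF3* also included 0. *SRSF6* (chr17:46119612-46122540), which encodes SRp55, was the lowest of the 10 genes in every population at 18.4 ± 9.01, 17.9 ± 4.33 and 26.7 ± 14.7 CPM, from 23 to 120 counts per library. Its fold changes of -0.04 ± 0.38 (liver CD8αhigh against cNK), 0.53 ± 0.38 (lrNK against cNK) and 0.57 ± 0.38 (lrNK against liver CD8αhigh) had the widest errors of the 10 genes. Without the lrNK library of pig 3, at 52.1 CPM, the second value was 0.16 and the last 0.19.

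The annotation limits how far some of these counts can be assigned to 1 gene, because the counting rule for overlapping genes and strand is not given in the sources used here. *SRSF2* shares 1364 of its 3190 bases with *METTL23*, which was given 1.01 to 1.20 counts per *SRSF2* count in each library. *SRSF3* shares 2576 bases with *LOC102161912*, which was given 0.975 to 1.08 counts per *SRSF3* count. Reads of the partners of each pair cannot be told apart here, so the levels of *SRSF2* and *SRSF3* are uncertain. *CLK2* overlaps *HCN3* by 1886 bases and *SRSF1* overlaps *LOC110256034* by 757 bases, with at most 0.50 and 0.0647 counts per count of the member. *CLK3* shares 69 bases with *EDC3*, which was given 0.625 to 1.67 counts per *CLK3* count, and *CLK4* shares 70 bases with *LOC106507310*, which had 0 counts. No annotated gene overlaps *CLK1*, *SRSF5*, *SRSF6* or *SRSF7*.

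**Figure D2:**
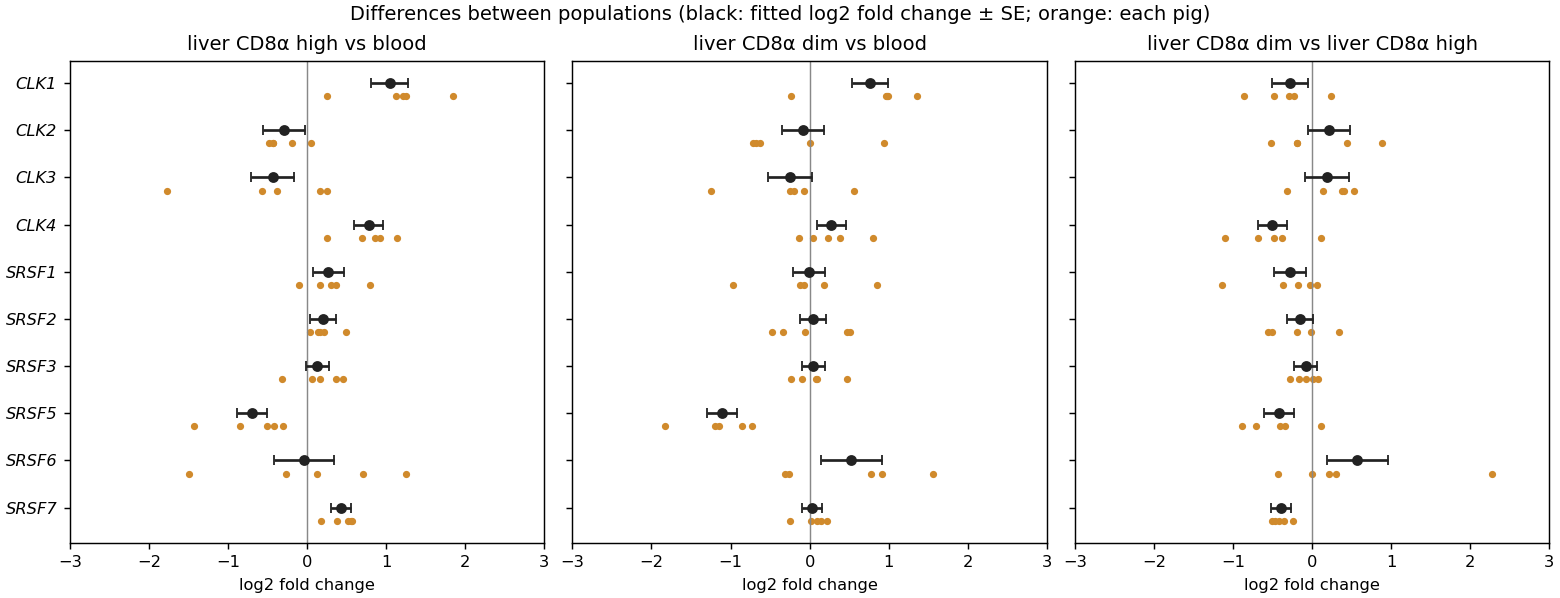
Log2 fold changes (horizontal axis) of the 10 genes in the 3 comparisons, with black points for the fitted value ± SE and orange points for the difference in each of the 5 pigs. *CLK1* (1.04), *CLK4* (0.78), *SRSF7* (0.43) and *SRSF2* (0.20) lie to the right of 0 and *SRSF5* (-0.70) to the left in all 5 pigs for liver CD8αhigh against blood.

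Over all 10 genes, the quasi-likelihood test of edgeR, adjusted by Benjamini-Hochberg, called 2 in lrNK against cNK cells, *CLK1* higher and *SRSF5* lower, where it called 18.2% of all genes tested. Libraries did not overlap for 1 of the 10, *SRSF5*, against 13.5% of all genes. In liver CD8αhigh against cNK cells it called 0 of the 10 at an adjusted p under 0.05, beside 0.064% of all genes, although 4 had an unadjusted p under 0.05, as did 5.02% of all genes, and DESeq2 called 3 (*CLK1*, *CLK4* and *SRSF7*, beside 0.232% of all genes). With the pig as a block, edgeR called 1, *CLK1*, beside 0.0731% of all genes. In this comparison the libraries of 4 of the 10 did not overlap (*CLK1*, *CLK4*, *SRSF5* and *SRSF7*), beside 2.01% of all genes. In lrNK against liver CD8αhigh cells, *SRSF7* was the 1 of the 10 genes called and the 1 of the 10 without overlap, beside 14.6% and 11.9% of all genes. The call of *CLK1* was lost without pig 1, 2 or 3 or without the lrNK library of pig 3 alone, that of *SRSF7* when any 1 pig or the liver CD8αhigh library of pig 1 or the lrNK library of pig 3 was left out. In lrNK against liver CD8αhigh cells *SRSF5* was called without pig 1 (log2 fold change -0.59) and *CLK4* without pig 2 (-0.67), each the 1 of the 10 genes called in that fit. Over all genes tested, these fits called 1376 and 1197. The genes were chosen with these comparisons known, so nothing is read from these counts. The median log2 fold change of the 10 genes was 0.04 in lrNK against cNK, 0.16 in liver CD8αhigh against cNK and -0.22 in lrNK against liver CD8αhigh cells, compared to 0.01, -0.02 and 0.02 over all genes tested.

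Summed levels were also compared with and without the most abundant gene *CLK1* of the kinases and with and without *SRSF5*. The 4 CLK genes summed to 608 ± 213 CPM in cNK, 1119 ± 39.9 CPM in liver CD8αhigh and 932 ± 259 CPM in lrNK cells. Libraries ran from 391 to 963 CPM in blood and from 1052 to 1157 CPM in liver CD8αhigh cells, without overlap, while lrNK libraries ran from 626 to 1328 CPM. The 6 SR genes summed to 1915 ± 62.5, 1978 ± 52.8 and 1655 ± 105 CPM. Their sums were 1822 to 1981 CPM in blood and 1896 to 2033 CPM in liver CD8αhigh cells, and lay lower in lrNK cells, at 1557 to 1792 CPM, with no overlap. Without *CLK1* the other 3 CLK genes summed to 151 ± 21.5, 179 ± 20.8 and 157 ± 35.2 CPM, with overlapping libraries. Without *SRSF5* the other 5 SR genes summed to 1352 ± 66.9, 1631 ± 25.9 and 1395 ± 62.3 CPM, so that lrNK libraries (1350 to 1503 CPM) overlapped blood (1301 to 1458 CPM) and liver CD8αhigh libraries (1602 to 1667 CPM) lay above both.

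The make-up of each family also differed between populations. *CLK1* held 73.7 ± 5.79% of the CLK counts in cNK cells (65.8 to 81.3%), 84.1 ± 1.72% in liver CD8αhigh cells (82.2 to 86.4%) and 83.0 ± 1.01% in lrNK cells (81.7 to 84.1%), so that blood lay below both liver populations in every library. *SRSF5* held 29.3 ± 3.92% of the SR counts in cNK cells (24.5 to 33.8%), 17.5 ± 2.50% in liver CD8αhigh cells (13.1 to 19.2%) and 15.6 ± 4.02% in lrNK cells (11.9 to 22.2%). The share of *SRSF7* was 24.9 ± 3.58%, 32.4 ± 0.910% and 29.5 ± 2.46%. Taken as a ratio within each library, which does not depend on the scaling, there were 0.881 to 1.56 *SRSF5* counts per *SRSF7* count in blood, 0.391 to 0.618 in liver CD8αhigh and 0.376 to 0.711 in lrNK libraries. Blood thus stood apart from liver in this ratio, whereas both liver populations covered nearly the same range. As the *SRSF5* levels alone already separated blood from both liver populations, the ratio is no separate support for that difference.

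The order of the 10 genes by mean level changed at its top. In cNK cells *SRSF5* (563 CPM) came first, followed by *SRSF7* (475 CPM), *CLK1* (456 CPM) and *SRSF3* (413 CPM), whose libraries overlapped. In liver CD8αhigh cells *CLK1* (941 CPM) came before *SRSF7* (640.4 CPM) and *SRSF3* (452 CPM), and the libraries of these 3 genes did not overlap. In lrNK cells *CLK1* (775 CPM) was again first, with a range of 511 to 1117 CPM that overlapped that of *SRSF7* (451 to 545 CPM) but not that of *SRSF3* (374 to 491 CPM). At the lower end, *SRSF6* came last in all 3 populations.

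Spread between pigs differed between populations and genes. In liver CD8αhigh cells the coefficient of variation over pigs was 4.03% for *CLK1*, compared to 42.8% in cNK and 28.9% in lrNK cells, and 1.73% for *SRSF7*, but 31.7% for *CLK3*, whose values in cNK and lrNK cells were 24.5% and 22.3%. This population had the smallest coefficient of variation for 6 of the 10 genes, cNK cells for 3 and lrNK cells for 1. Among the 6334 genes tested with a mean of at least 20 CPM, LOC identifiers included, liver CD8αhigh cells had the smallest value for 53.1%, cNK cells for 33.3% and lrNK cells for 13.6%, so that the share of the 10 genes was near that of all genes. The lrNK library of pig 3 stood apart in several genes, being the highest of its population for *CLK1*, *CLK2*, *CLK3*, *SRSF2*, *SRSF3* and *SRSF6* and the lowest for *SRSF1*.

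**Figure D3:**
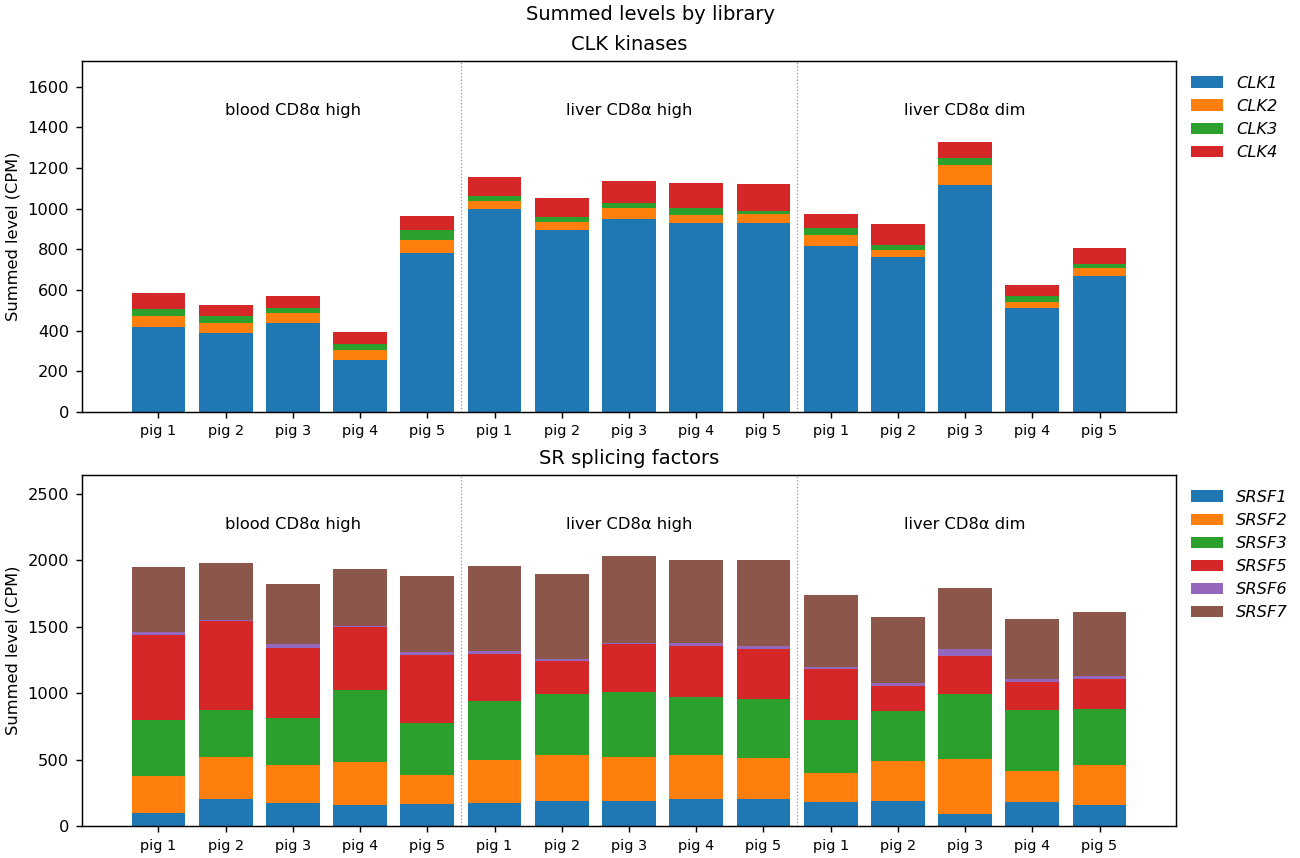
Summed level in CPM (vertical axis, from 0) of the CLK genes (top) and the SR genes (bottom) in each of the 15 libraries, with bar segments for the genes. CLK sums are 391 to 963 CPM in blood and 1052 to 1157 CPM in liver CD8αhigh cells. In the SR bars the *SRSF5* segment is largest in blood, while the lrNK sums of 1557 to 1792 CPM are below all others.

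Likeness of pattern was measured as the root mean square difference between the centred log2 CPM of a gene and the mean centred log2 CPM of the family over the 15 libraries, among 5910 other genes with a symbol (identifiers starting with LOC were left out) and a mean of at least 20 CPM. The genes most like the mean of the CLK genes were *YTHDC1* (0.141), which encodes a nuclear reader of methylated adenosine in RNA, *ZC3H18* (0.151), which encodes a factor of nuclear RNA processing, and *ZBTB11* (0.152), a zinc finger gene. The SD of the CLK mean itself was 0.277 over the same libraries. This mean averages genes that differed from blood in opposite directions. In liver CD8αhigh against cNK cells the log2 fold changes of *YTHDC1*, *ZC3H18* and *ZBTB11* were 0.17, 0.18 and 0.40, against 1.04 for *CLK1*. Closest to the mean of the SR genes were *NUCKS1* (0.0850), *SRSF10* (0.107), which encodes another SR protein, and *TNPO2* (0.109), which encodes a nuclear import receptor, beside an SD of 0.107 for the SR mean. A gene without any variation would differ from a family mean by about the SD of that mean. *SRSF10* and *TNPO2* were thus no closer to the SR mean than such a gene, and no shared pattern is read from them.

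Genes around the CLK and SR proteins were taken from 8 lists that hold none of the 10 genes. Of 186 genes, 173 were tested. Of these, 21 rose and 18 fell in lrNK against cNK cells (edgeR, adjusted p under 0.05), 3 rose and 1 fell in liver CD8αhigh against cNK cells, and 8 rose and 11 fell in lrNK against liver CD8αhigh cells. That is 22.5%, 2.31% and 11.0% of the genes tested on the lists, beside the 18.2%, 0.064% and 14.6% of all genes given above. Values given in parentheses after levels are log2 fold changes ± SE. The lists were also written with earlier results of these data known.

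Of the other SR proteins, 5 were tested and 1 fell in lrNK cells: *SRSF12*, which encodes an SR protein that represses splicing, was at 14.1 ± 6.56 CPM in cNK, 9.91 ± 2.60 CPM in liver CD8αhigh and 1.81 ± 2.44 CPM in lrNK cells (log2 fold change against cNK cells -2.96 ± 0.73, edgeR adjusted p = 0.0061, lower in 5 of 5 pigs). Without pig 2 the log2 fold change was -4.04. It had 28 to 66 counts in blood and 0 to 12 counts in lrNK libraries. *SRSF12* also fell against liver CD8αhigh cells (-2.45 ± 0.72, edgeR adjusted p = 0.024), a call that was lost without pig 1, 3, 4 or 5, with a value of -3.39 without pig 2. *SRSF4*, *SRSF9*, *SRSF10* and *SRSF11* differed from cNK cells by -0.31, -1.09, -0.07 and -0.38 in lrNK cells, with edgeR adjusted p-values of 0.28, 0.38, 0.78 and 0.099. *SRSF9* had only 2 to 25 counts per library. None of the 5 was called in liver CD8αhigh against cNK cells, by edgeR or DESeq2, and 0 had an unadjusted p under 0.05.

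Among 29 SR-related splicing proteins tested, 1 rose and 3 fell in lrNK against cNK cells. *SCAF4*, which encodes a factor binding RNA polymerase II and acting at polyadenylation sites, rose from 69.4 ± 14.1 to 128 ± 25.8 CPM (0.88 ± 0.19, edgeR adjusted p = 0.0019). *SNRNP70*, which encodes the U1 snRNP protein contacted by SR proteins at 5′ splice sites, fell from 230.5 ± 24.1 to 106 ± 26.4 CPM (-1.12 ± 0.19, edgeR adjusted p = 0.000165), and stood at 151 ± 31.5 CPM in liver CD8αhigh cells. *SFSWAP*, an SR-like splicing regulator gene, fell by 0.97 and *ARGLU1* fell by 0.67 on the log2 scale, the latter in 4 of 5 pigs and with its call lost without pig 1 or 4. In liver CD8αhigh against cNK cells 0 of the 29 were called by edgeR or DESeq2, with 2 at an unadjusted p under 0.05. Against liver CD8αhigh cells, 1 gene rose (*SCAF4*, called no more without pig 1, 2, 4 or 5) and 1 fell (*SFSWAP*).

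The kinases, phosphatases and import receptor of SR proteins gave 4 rises and 2 falls among 20 genes tested in lrNK against cNK cells. *SRPK2*, which encodes a kinase that phosphorylates SR proteins before CLKs do, rose from 35.7 ± 5.37 CPM in cNK to 76.0 ± 6.84 CPM in lrNK cells (1.09 ± 0.21, edgeR adjusted p = 0.00086) and was at 31.4 ± 7.91 CPM in liver CD8αhigh cells. The lrNK libraries, at 66.7 to 83.1 CPM, did not overlap the others, at 19.0 to 41.1 CPM. Its paralog *SRPK1* was at 100.4 ± 6.56, 120.3 ± 8.99 and 132 ± 36.1 CPM, with 0.40 ± 0.18 in lrNK against cNK cells (edgeR adjusted p = 0.13). The largest difference was in *DYRK3*, which encodes a kinase that dissolves nuclear speckles and stress granules. It had 0 to 6 counts in cNK, 0 to 16 counts in liver CD8αhigh and 61 to 177 counts in lrNK libraries, or 0.845 ± 0.600, 1.76 ± 2.40 and 40.1 ± 15.2 CPM (edgeR adjusted p = 7.1e-05 for lrNK against cNK cells). Its relative *DYRK2* fell from 171 ± 12.6 to 61.6 ± 18.5 CPM (-1.48 ± 0.18, edgeR adjusted p = 5.2e-06).

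*TOP1*, which encodes topoisomerase I, known also as an SR protein kinase, rose from 351 ± 73.5 to 578 ± 78.6 CPM in lrNK cells (0.72 ± 0.17, edgeR adjusted p = 0.0046). *HIPK2* rose by 0.72 and *HIPK3* fell by 0.72 on the log2 scale. The call of *HIPK2* was lost without pig 1 or 3 and that of *HIPK3* without pig 2, 3, 4 or 5. In lrNK against liver CD8αhigh cells *DYRK3*, *SRPK2* and *HIPK2* rose and *DYRK2* and *HIPK3* fell, and of these 5 calls that of *HIPK3* was lost without pig 5. Of the 20 genes, 0 were called in liver CD8αhigh against cNK cells by edgeR or DESeq2, and 0 had an unadjusted p under 0.05.

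Splicing repressors of the hnRNP and related families gave 1 rise and 4 falls among 26 genes tested in lrNK against cNK cells. *HNRNPLL*, which encodes a regulator of *PTPRC* (CD45) exon choice in lymphocytes, rose from 13.2 ± 7.06 to 59.2 ± 24.1 CPM (2.15 ± 0.42, edgeR adjusted p = 0.00092). *HNRNPA1*, which encodes a classical antagonist of SRSF1, fell from 444 ± 72.6 to 249.6 ± 50.4 CPM (-0.83 ± 0.18, edgeR adjusted p = 0.0020) and *PTBP3* from 1173 ± 191 to 716 ± 135 CPM (-0.71 ± 0.16, edgeR adjusted p = 0.0031). *TIAL1* fell by 0.63, a call lost when any 1 of the 5 pigs was left out. *HNRNPLL* was higher and *HNRNPA1* and *PTBP3* were lower against liver CD8αhigh cells too, with calls in the same direction, of which that of *HNRNPLL* was lost without pig 5. In liver CD8αhigh against cNK cells 0 were called by edgeR or DESeq2 and 0 had an unadjusted p under 0.05.

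Of 37 core spliceosome genes tested, 4 rose and 2 fell in lrNK against cNK cells. *SF3B3* (a U2 snRNP subunit gene) rose by 0.90 ± 0.25 on the log2 scale, *SNRPD1* by 0.72 ± 0.19 and *SNRPG* (Sm ring genes) by 0.65 ± 0.18, while *PRPF38A* fell by 1.05 and *EFTUD2* (a U5 snRNP GTPase gene) fell by 0.89. Single pigs decided the calls of *SF3B3* (pig 1 or 3), *SNRPG* (pig 4 or 5), *PRPF38A* (pig 4) and *EFTUD2* (pig 1, 3 or 5). *SNRPD1* rose against liver CD8αhigh cells as well, a call lost without pig 1, 3, 4 or 5 and in 2 of the single-library omissions. None of the 37 were called in liver CD8αhigh against cNK cells by edgeR or DESeq2, with 3 at an unadjusted p under 0.05. The 17 nonsense-mediated decay factors tested, which degrade transcripts with poison exons, gave 0 calls by edgeR or DESeq2 in all 3 comparisons, with 1, 0 and 1 at an unadjusted p under 0.05 in lrNK against cNK, liver CD8αhigh against cNK and lrNK against liver CD8αhigh cells, beside 29.5%, 5.02% and 24.9% of all genes.

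**Figure D4:**
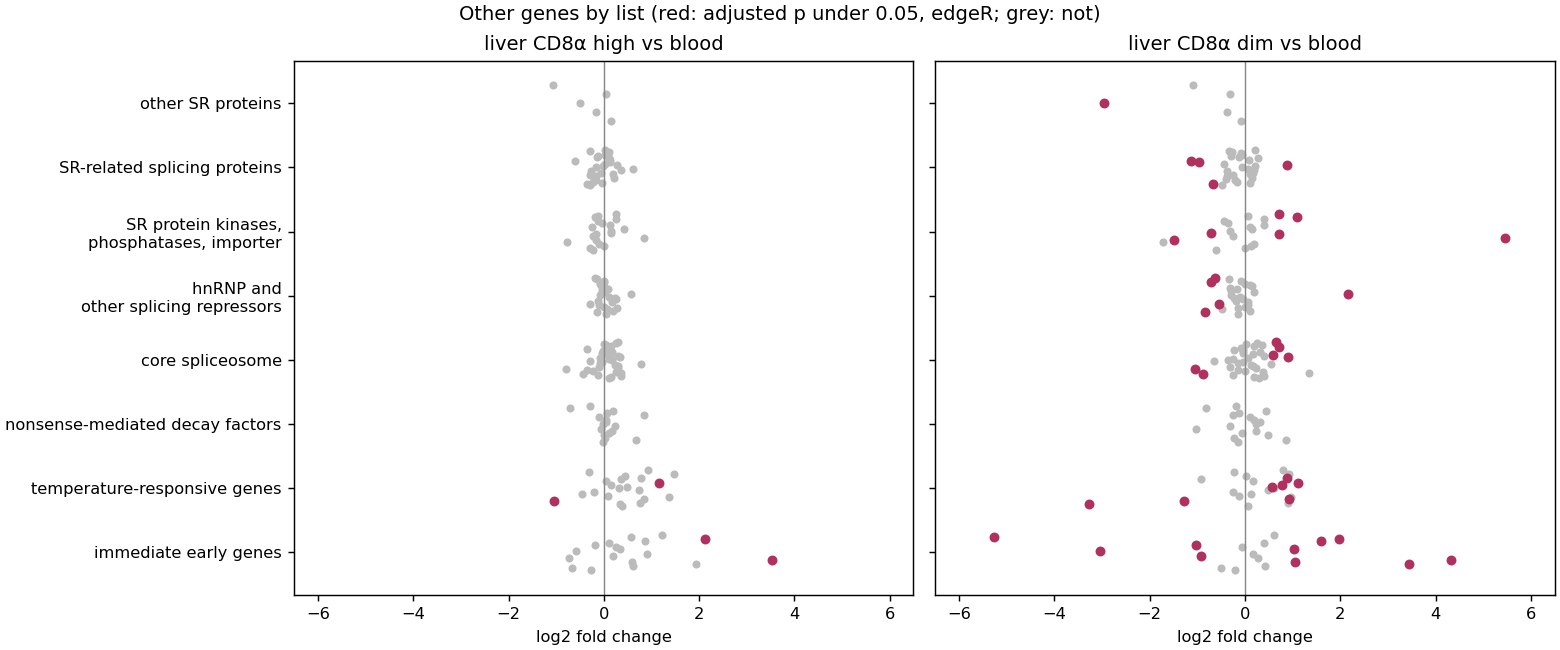
Log2 fold change (horizontal axis) of each tested gene of the 8 lists, in liver CD8αhigh (left) and CD8αdim (right) cells against blood, with red for an adjusted p under 0.05 in edgeR. In total 4 genes are red on the left and 39 on the right, and none of the nonsense-mediated decay factors is.

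Because CLK activity responds to temperature and the liver was flushed with ice-cold PBS, genes known to respond to cold or heat were listed beside the members. Of 21 tested, 5 rose and 2 fell in lrNK against cNK cells, 1 rose and 1 fell in liver CD8αhigh against cNK cells, and 0 rose and 1 (*BAG3*) fell in lrNK against liver CD8αhigh cells. With the pig as a block these were 7 and 2, 1 and 1, and 0 and 2. *HSPA8*, which encodes the constitutive chaperone HSC70, rose from 636 ± 73.3 CPM in cNK cells to 1413 ± 495 CPM in liver CD8αhigh cells (1.15 ± 0.19, edgeR adjusted p = 0.0103) and 1380.2 ± 212 CPM in lrNK cells (1.12 ± 0.19, edgeR adjusted p = 0.00021), with 5 of 5 pigs higher in both. *CIRBP*, which encodes a cold-inducible RNA-binding protein, fell from 455 ± 64.9 CPM to 218 ± 25.5 CPM (-1.06 ± 0.17, edgeR adjusted p = 0.0103) and 187 ± 49.9 CPM (-1.28 ± 0.18, edgeR adjusted p = 1.7e-05), with 5 of 5 pigs lower in both. In liver CD8αhigh cells the call of *HSPA8* was lost when any 1 pig was left out, and that of *CIRBP* without pig 1, 2 or 4.

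The other cold-inducible gene, *RBM3*, was at 219.7 ± 81.3, 176 ± 21.9 and 188 ± 102 CPM, with an edgeR adjusted p of 0.73 for lrNK against cNK cells. Its lowest value, 31.7 CPM, was in the lrNK library of pig 3. *DNAJA1*, which encodes a co-chaperone of HSC70, rose in lrNK cells from 186 ± 43.6 to 354 ± 62.2 CPM (0.93 ± 0.21, edgeR adjusted p = 0.0031), and the mitochondrial chaperone gene *HSPD1* from 42.7 ± 7.82 to 78.8 ± 37.9 CPM (edgeR adjusted p = 0.023), a call lost without pig 2, 3 or 4 and without the lrNK library of pig 3 alone. *BAG3*, which encodes a heat-inducible co-chaperone, fell from 33.6 ± 9.12 to 3.60 ± 4.39 CPM in lrNK cells (-3.28 ± 0.57, edgeR adjusted p = 0.000265, and -4.24 without pig 1), and stood at 42.6 ± 18.4 CPM in liver CD8αhigh cells. Between both liver populations its log2 fold change was -3.62 ± 0.57 (edgeR adjusted p = 0.000123, lower in 5 of 5 pigs), and -4.84 without pig 1. In lrNK against cNK cells the list had 12 of 21 genes at an unadjusted p under 0.05, beside 29.5% of all genes, and 10 called by DESeq2, beside 18.2%. In liver CD8αhigh against cNK cells it had 10 and 4, beside 5.02% and 0.232% of all genes. Its median log2 fold change was 0.48 in the former and 0.39 in the latter, compared to 0.01 and -0.02 over all genes. The part of temperature or handling in the levels of the CLK and SR genes was not tested.

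Immediate early genes, which respond within minutes to stimulation and to cell handling, gave 6 rises and 4 falls among 18 tested in lrNK against cNK cells and 2 rises in liver CD8αhigh against cNK cells. *EGR3* stood at 3.26 ± 3.16 CPM in cNK, 36.9 ± 19.3 CPM in liver CD8αhigh and 63.8 ± 27.8 CPM in lrNK cells and rose in both (edgeR adjusted p = 0.0103 and 1.6e-05). *NR4A2* rose likewise from 51.3 ± 31.6 CPM to 224 ± 50.2 and 201 ± 84.8 CPM (edgeR adjusted p = 0.0103 and 0.00025). In liver CD8αhigh cells these 2 calls were lost without pig 1, 2 or 4 for *EGR3* and without pig 1, 2 or 5 for *NR4A2*. The log2 fold change of *EGR3* there was 3.54, and 4.23 without pig 5. *EGR1* rose in lrNK cells, from 2.28 ± 2.61 to 24.7 ± 9.01 CPM (edgeR adjusted p = 0.0038), with a log2 fold change of 3.44, and 4.25 without pig 4. Other immediate early genes went the other way: *NR4A3* fell from 150.5 ± 64.0 to 4.14 ± 3.80 CPM (-5.27 ± 0.51, edgeR adjusted p = 2.0e-07), *IER3* from 8.93 ± 3.70 to 1.11 ± 1.43 CPM, a call lost without pig 4 or 5 (log2 fold change -3.05, -2.45 without pig 4 and -3.99 without pig 2), and *JUNB* from 96.3 ± 13.2 to 47.1 ± 14.2 CPM. In lrNK against liver CD8αhigh cells 2 of the 18 rose, *NFKBIA* (0.74, called no more without pig 1, 4 or 5) and *IER5* (0.70, called no more without pig 2), and 4 fell, among them *NR4A3* (-5.83) and *FOSL2* (-1.11). Whether these genes and the CLK genes share a cause was not tested.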

How the data were processed

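RNA of sorted NK cells was sequenced with a 3′ mRNA kit. The authors trimmed the reads with QuasR, aligned them to Sscrofa11.1 with HISAT2 and deposited raw counts per gene for the 15 libraries. How reads were counted, and with which strand setting, is not given in the sources used here. Column names tied each of the 15 columns to 1 labelled sample. Coordinates come from a gene table of the same build, which held 29862 of the 29886 genes.

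Counts were fitted in R 4.3.3 with edgeR 4.0.16 (TMM, filterByExpr by population, quasi-likelihood test, all 15 libraries, no block), and p-values were adjusted by Benjamini-Hochberg over 10939 genes, with a threshold of 0.05. The SE was derived from the fold change and its F statistic, and 95% intervals span 1.96 SE. They rest on the spread between the libraries of a population, partly shared over genes. As the fit was unpaired, they do not measure the spread of the differences within pigs. Log2 CPM used a prior count of 2. Libraries of a population differed beyond sampling noise (chi-square per degree of freedom 9.59 to 49.8 over 30 pairs). The test was tried on simulated data. Python 3.11.15 with matplotlib 3.10.9 drew the figures.

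Libraries with the same number come from the same pig, as the labels and the study state. Their deviations from the population means had a mean correlation of 0.107 (-0.0191 to 0.193) within pigs and -0.0265 between pigs. Alternatives were the pig as a block, DESeq2 1.42.0, its size factors in edgeR, no filter or a stricter one, fits of 2 populations, and leaving out each pig, the lrNK library of pig 3 or the liver CD8αhigh library of pig 1.

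The members and lists were chosen with earlier results of these data known. Named are the members and, per list, the 3 largest rises and falls in lrNK against cNK cells and up to 2 each in the other comparisons, among genes called with the same direction in 5 pigs. *CIRBP*, *RBM3*, *SRPK1*, *SRPK2*, the other SR genes, the 3 genes most like each family and markers are named in any case, and *TOP1* and *ARGLU1*, and *HIPK2* between the liver populations, were added after their values were seen. Sequences were not used here.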

Additional observations from a re-analysis of the deposited data

Results flagged for a closer look

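In 4 of the 30 groups of 5 libraries (10 genes in 3 populations), 1 library lay further from its nearest neighbour than Dixon's 95% critical value of 0.71 allows. Chance gives about 1 in 20 groups. *SRSF1* was at 86.7 CPM in the lrNK library of pig 3, where the other 4 pigs had 159 to 188 CPM. The same library held 52.1 CPM of *SRSF6*, against at most 25.6 CPM in the others. *SRSF6* was at 10.3 CPM in the liver CD8αhigh library of pig 3, below 18.2 to 20.7 CPM in the other pigs. *SRSF5* was at 249 CPM in the liver CD8αhigh library of pig 2, below 357 to 385 CPM. Without the lrNK library of pig 3 the log2 fold change of *SRSF6* went from 0.53 to 0.16 against cNK and from 0.57 to 0.19 against liver CD8αhigh cells, and that of *SRSF1* from -0.28 to -0.12 against liver CD8αhigh cells. The *SRSF5* value lay further from blood than those of the other pigs, and without pig 2 the log2 fold change of *SRSF5* in liver CD8αhigh against cNK cells went from -0.70 to -0.53.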

How the results depend on the processing

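All 390 log2 fold changes of the 10 genes (30 values under 13 settings) moved by less than their SD over pigs. This limit is wide, because leaving out 1 of 5 pigs always moves a mean over pigs by less than 1 SD. Staying within it is therefore no measure of stability. Of the 30 values, 8 turned sign in some setting: *SRSF6* in liver CD8αhigh against cNK cells (-0.28 to 0.35, and 0.10 with the block), *CLK2* (-0.48 to 0.07), *CLK3* (-0.45 to 0.02), *SRSF1* (-0.18 to 0.17), *SRSF2*, *SRSF3* and *SRSF7* in lrNK against cNK cells, and *CLK2* in lrNK against liver CD8αhigh cells (-0.16 to 0.35). *CLK3* in liver CD8αhigh against cNK cells was -0.12 without pig 5. With the pig as a block, edgeR called 2120, 8 and 1716 genes in lrNK against cNK, liver CD8αhigh against cNK and lrNK against liver CD8αhigh cells, against 1993, 7 and 1601 without it, 43, 4 and 22 list genes against 39, 4 and 19, and 2, 1 and 1 of the 10 genes against 2, 0 and 1. For liver CD8αhigh against cNK cells the 7 calls became 24 with DESeq2, 18 without a filter, 16 in a fit of the 2 populations and 12 without the lrNK library of pig 3, and the 4 list genes became 7 with DESeq2. Of the 10 genes, this comparison called 3 with DESeq2 and 1 without a filter, in the fit of the 2 populations and without the lrNK library of pig 3. For lrNK against cNK cells 1 was left in the fit of the 2 populations and without that library (*CLK1* lost), and for lrNK against liver CD8αhigh cells 0 were left in those fits, without a filter and without the liver CD8αhigh library of pig 1. Leaving out each pig, or either of those 2 libraries, gave 1472 to 2301, 0 to 12 and 1051 to 1764 genes, 28 to 42, 0 to 4 and 11 to 19 list genes, and 1 to 2, 0 to 1 and 0 to 1 of the 10 genes, in the order of comparisons above. *CLK1* was called in lrNK against cNK cells without pig 4 or 5 and not without pig 1, 2 or 3. Single named list genes kept their direction and stayed called or stayed uncalled in 828 values, so that these include genes without a call to keep. They lost the call in 68, gained it in 2 (*SRPK1*, 0.55 without pig 3 or its lrNK library) and turned sign in 11, all uncalled. For lrNK against cNK cells *RBM3* ran from -0.46 to 0.061 and *SRSF10* from -0.16 to 0.017 over the omissions. For lrNK against liver CD8αhigh cells *RBM3* ran from -0.067 to 0.38 and *SRSF9* from -0.43 to 0.13 over the omissions, *RBM3* was at -0.038 with the block, and *SRSF9* at 0.00506 with DESeq2, 0.00557 with its size factors and 0.00448 with the block. The cause of these shifts was not tested. Counts were low for *SRSF6*, *SRSF9* and *SRSF12*, and all intervals rest on 5 pigs.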
